A study of Mus musculus with 10 samples.

Results

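LA biological replicate 4 was compared with LA biological replicate 3 in 3T3-L1 adipocytes, at 8 h and at 12 h of treatment. 3T3-L1 is a mouse fibroblast line that can be turned into fat-storing cells in culture. The 4 arrays compared were those whose titles name biological replicate 3 or 4, of 10 arrays in the series. LA, an abbreviation commonly used for linoleic acid that the labels do not spell out, was the control for c9t11 CLA, a conjugated linoleic acid. The series held 4 LA arrays at each time and 1 CLA array at each time, the latter both of replicate 1. All 4 arrays compared therefore had the same cell line and the same fatty acid, and differed by replicate number and time. The labels call the replicates biological and do not say whether they came from separate platings. They also do not describe the medium. Each replicate had 1 array per time, so the differences below are descriptions with no p-value. The pair and its 4 marker genes, Fkbp5, Slc7a5, Fosl1 and Ccnd3, were chosen by how these same arrays differed.

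Glucocorticoid hormones act through the glucocorticoid receptor, a transcription factor that moves to the nucleus when it binds the hormone. There it switches on genes such as Fkbp5 and Tsc22d3 and dampens the genes of inflammation, many of which are driven by the transcription factor NF-kB. The synthetic glucocorticoid dexamethasone is a usual part of the mixture that starts 3T3-L1 cells on the way to fat cells. Adipocytes respond to NF-kB activity by making chemokines, the small proteins that attract immune cells. Slc7a5 is a transporter that brings large neutral amino acids such as leucine into cells. Fosl1 is a subunit of the AP-1 transcription factor, and Ccnd3 encodes cyclin D3, a partner of the kinases that carry cells through the G1 phase.

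Levels are given as log2 of normalized probe set intensity, with the lowest values raised to a floor of 3.84. The array measured 18193 genes, of which the brightest 10916 were tested. The adipocyte markers Adipoq and Fabp4 were between 12.69 and 13.23 in all 8 LA arrays, but other adipocyte markers differed. At 12 h Cidec was at 12.34 in replicate 3 and 9.62 in replicate 4. Slc2a4 was at 8.26 and 6.33, Cebpa at 10.72 and 8.94, Pparg at 10.48 and 9.83, and Retn at 12.37 and 11.79. Lpl was at 12.91 and 12.92. At 8 h Cidec was also lower in replicate 4, at 12.07 and 11.59, as was Cebpa, at 10.52 and 9.55. Slc2a4 (8.27 and 8.83), Pparg (10.02 and 10.78), Retn (12.38 and 12.71) and Lpl (12.92 and 13.01) were higher. The macrophage markers Itgam, Lyz2, Ptprc and Tyrobp and the endothelial markers Pecam1, Kdr and Tek were at the floor in all 8. The macrophage markers Adgre1 and Csf1r were above the floor in all 8. Of the LA arrays, the macrophage marker Cd68 and the endothelial marker Cdh5 were above it in those of replicate 1 alone. The 12 h array of replicate 4 stood apart in signs of RNA integrity. For Actb, the probe set at the 3′ end of the transcript was 5.67 times as bright as that at the 5′ end in that array, against 1.49 to 1.73 in the other LA arrays at 12 h. For Gapdh the same ratio was 1.42, against 0.845 to 0.879 in the others. At 8 h the Actb ratio was 2.60 in replicate 4 and 2.58 in replicate 3, while the Pcx ratio was 29.1 in replicate 4 and 15.7 in replicate 3. Results are therefore given for each time, and the part of RNA integrity in them was not tested.

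**Figure D1:**
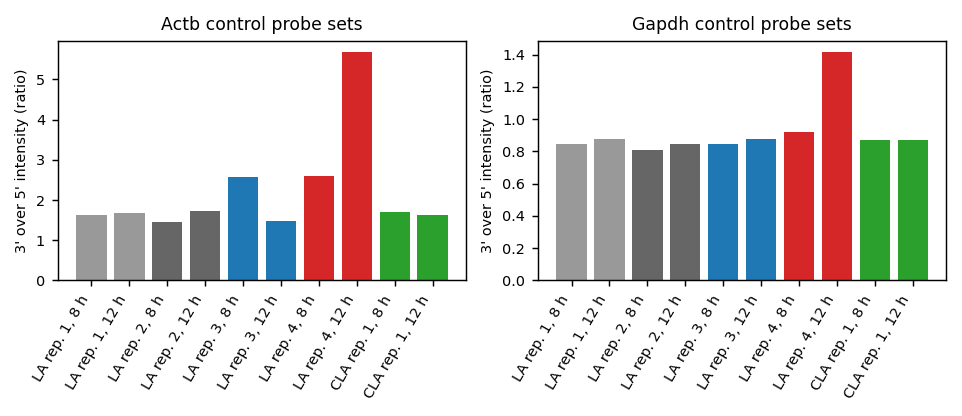
Ratio of the 3′ to the 5′ control probe set intensity for Actb (left) and Gapdh (right), 1 bar per array, in grey for LA replicates 1 and 2, blue for LA replicate 3, red for LA replicate 4 and green for CLA replicate 1. The 12 h array of LA replicate 4 is the highest for both genes, at 5.67 and 1.42.

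A gene was counted when replicate 4 differed from replicate 3 by at least 1 on the log2 scale, which is 2-fold, in the same direction at both times. By this rule 116 genes were higher in replicate 4, which is 1.06% of the genes tested, and 289 were lower, which is 2.65%, or 3.71% together. In the values as deposited, with no further scaling, the medians of the differences over all genes were 0.21 at 8 h and 0.25 at 12 h, and 244 genes were higher and 186 lower. At 8 h alone 636 genes were higher (5.83%) and 667 lower (6.11%), and at 12 h alone 985 were higher (9.02%) and 947 lower (8.68%). Across genes the differences at the 2 times correlated at r = 0.33 over 10916 genes, which are not independent and share the normalization. In LA replicate 2 against replicate 1, a pair with no array in common with these, 2839 genes passed the same rule, which is 26% of those tested, and the times correlated at 0.85.

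The 4 marker genes were lower in replicate 4 at both times, as the choice of the pair required. The level of Fkbp5, which encodes a chaperone that binds the glucocorticoid receptor complex, was 10.36, 9.72, 9.87 and 6.45 in LA replicates 1 to 4 at 8 h, and 9.97, 10.03, 9.77 and 7.44 at 12 h. Replicates 1 to 3 lay close together, and replicate 4 was 10.7-fold below replicate 3 at 8 h and 5.02-fold below it at 12 h. A further probe set of Fkbp5 gave differences of -3.71 and -4.42 on the log2 scale. The level of Slc7a5 was 9.83, 8.76, 8.52 and 5.58 in replicates 1 to 4 at 8 h, and 9.60, 8.69, 8.53 and 5.19 at 12 h. Replicate 3 was close to replicate 2, and replicate 4 was 7.66-fold and 10.1-fold below replicate 3. The level of Fosl1 was 8.80, 8.75, 7.84 and 4.96 at 8 h, and 7.73, 8.75, 8.02 and 4.45 at 12 h. Replicate 4 was 7.35-fold and 11.8-fold below replicate 3, and a further probe set of Fosl1 gave log2 differences of -2.55 and -3.21. The level of Ccnd3 was 9.44, 9.51, 9.54 and 7.76 at 8 h, and 9.39, 9.37, 9.41 and 7.65 at 12 h. Replicates 1 to 3 were nearly level with each other, and replicate 4 was 3.43-fold and 3.39-fold below replicate 3. For each of the 4 genes both arrays of replicate 4 lay below all 8 other arrays of the series, CLA included. That position was held by 9.84% of all genes tested and by 75.4% of the 289 genes lower in replicate 4, and since the markers were chosen for being low there, nothing is read from it. RNA from bulk cultures does not tell fewer cells that make a transcript from less of it per cell.

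**Figure D2:**
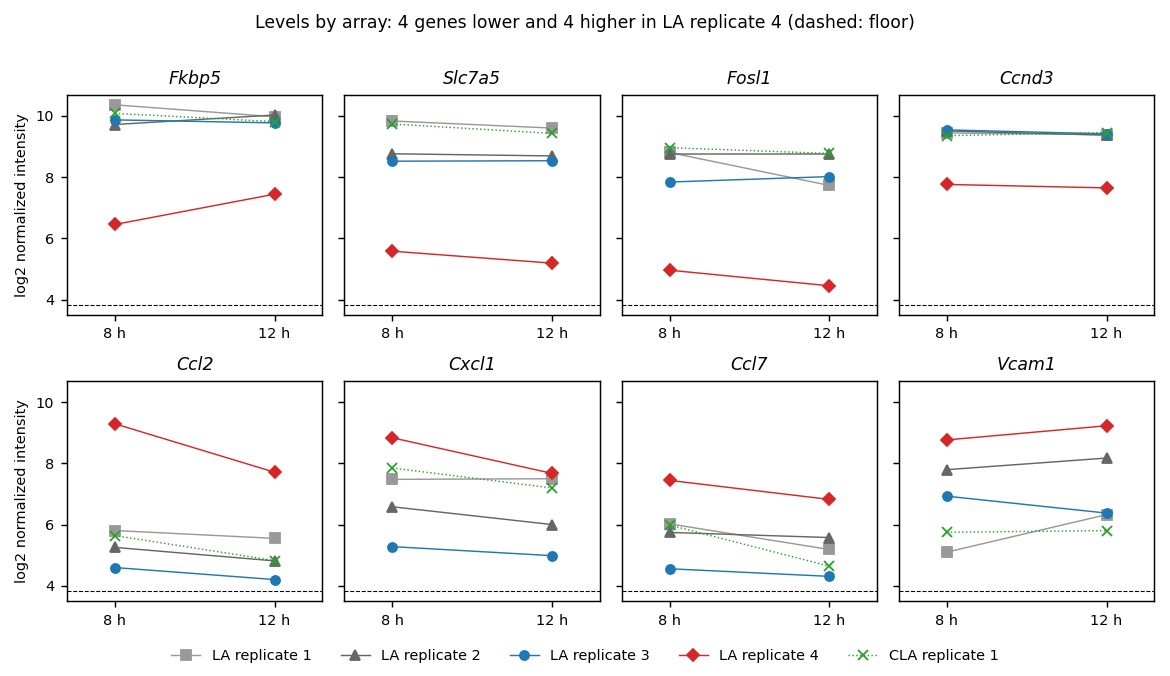
Level of 8 genes (log2 normalized intensity) at 8 h and 12 h, with 1 line per replicate: LA replicates 1 to 4 and, dotted, CLA replicate 1. In the upper row replicate 4 lies below every other array, for example Ccnd3 at 7.76 and 7.65. In the lower row it is above LA replicate 3 at both times, for example Ccl2 at 9.29 and 7.71.

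Of 25 genes listed for the glucocorticoid response, 24 were tested and 11 were lower in replicate 4 at both times, with 0 higher, where 2.65% of all genes tested were lower and 1.06% higher. The median difference of the 24 was -0.75 at 8 h and -1.30 at 12 h, against 0.0049 and 0 over all genes tested. At 8 h 12 of the 24 were at least 2-fold lower in replicate 4 (6.11% of all genes), and at 12 h 14 were (8.68% of all genes). The 11 were Fkbp5, Tsc22d3, Per1, Zbtb16, Ddit4, Cebpd, Mt2, Errfi1, Lcn2, Fam107a and Cdkn1a. Fkbp5 is a marker chosen for being low in replicate 4, and the list was chosen with earlier results of these data known. The count is therefore a description and not a test of the list.

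Tsc22d3, also known as GILZ, is a mediator of the anti-inflammatory action of glucocorticoids. Its level was 9.92, 9.86, 8.87 and 7.42 in replicates 1 to 4 at 8 h, and 10.09, 9.84, 9.04 and 6.21 at 12 h. Replicate 4 was the lowest at both times, and replicate 3 was the next. Fam107a was at 8.40, 8.44, 8.15 and 3.84 at 8 h, where replicate 4 was at the floor and so at least 19.9-fold below replicate 3, and at 8.46, 9.01, 8.25 and 5.69 at 12 h. Lcn2, a secreted protein of the acute phase that binds iron carriers, was at 11.43, 11.14, 11.71 and 8.49 at 8 h, and at 11.59, 11.20, 11.59 and 9.68 at 12 h. Replicates 1 to 3 were close together for both genes and replicate 4 stood below them.

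Mt2, a metal-binding protein, was at 12.04, 11.10, 10.72 and 9.42 at 8 h and at 11.44, 11.26, 10.95 and 8.08 at 12 h. Ddit4, an inhibitor of the growth kinase mTORC1, was at 9.62, 9.69, 9.01 and 8.01 at 8 h and at 9.35, 9.81, 9.15 and 6.09 at 12 h. The gap to replicate 3 was larger at 12 h than at 8 h for both, at -2.88 against -1.30 for Mt2 and -3.07 against -1.01 for Ddit4. Cdkn1a, which encodes the cell cycle inhibitor p21, differed by -1.91 and -1.97, and a further probe set of it by -2.55 and -2.89. Per1, a component of the circadian clock, differed by -1.70 and -1.96. Zbtb16, a transcription factor, differed by -1.25 and -2.11. Cebpd, a transcription factor of early adipogenesis, differed by -1.24 and -1.10. Errfi1, an inhibitor of the EGF receptor, differed by -1.32 and -1.48. For all 11 genes both arrays of replicate 4 lay below all 8 other arrays. That position was held by 9.84% of all genes tested and by 75.4% of the 289 genes lower in replicate 4. The 11 were counted from those 289, so nothing is read from it. The margin was narrow for Errfi1, whose 12 h level in replicate 4 was 8.34 against 8.35 in the 8 h CLA array.

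The other 13 members tested did not pass in either direction. Nr3c1, the receptor itself, was at 8.07 and 8.76 in replicates 3 and 4 at 8 h and at 7.73 and 9.05 at 12 h, and so was not lower in replicate 4. Its level in replicate 1 was at the floor at 8 h, so the replicates differed in Nr3c1 apart from this pair. Sgk1, a kinase, differed by -1.14 at 8 h and 0.12 at 12 h. Klf9 differed by -0.24 and -0.33, Dusp1 by 0.35 and -0.88, and Glul by -0.05 and -0.74. Mt1 differed by -0.49 and -1.48. These members were therefore within 2-fold of replicate 3 at 1 time or at both.

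**Figure D3:**
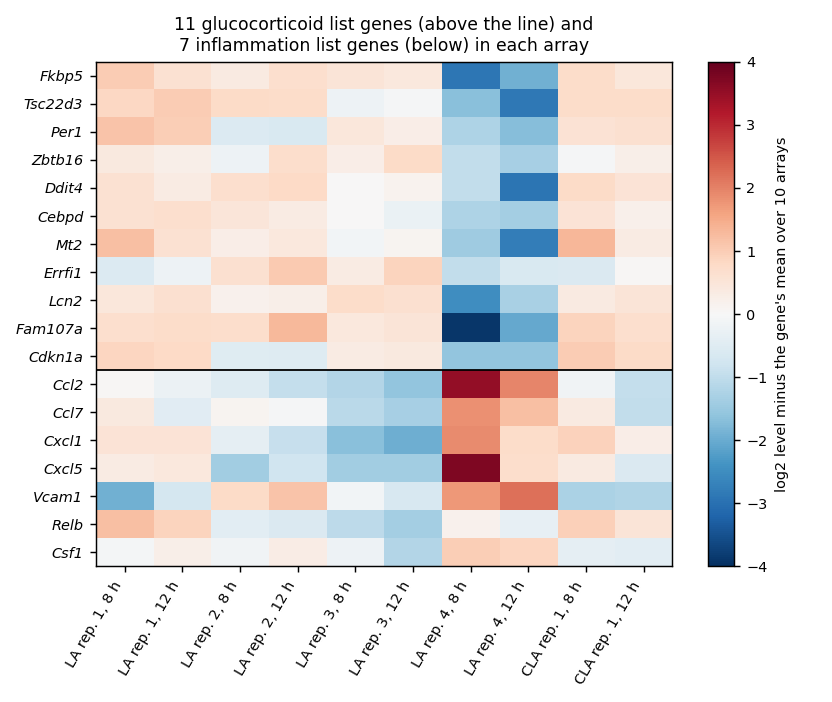
Level of each gene minus its mean over the 10 arrays (log2), in colour from blue (below the mean) to red (above), for the 11 glucocorticoid list members lower in replicate 4 (above the line) and the 7 inflammation list members higher in it (below the line). The columns are the 8 LA arrays and the 2 CLA arrays, and the 2 columns of LA replicate 4 are blue above the line for all 11 genes.

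Of 21 genes listed for inflammation and NF-kB targets, 15 were tested, 7 were higher in replicate 4 at both times and 1, Lcn2, was lower, where 1.06% of all genes tested were higher and 2.65% lower. The median difference of the 15 was 1.24 at 8 h and 0.71 at 12 h. This list too was chosen with earlier results of these data known, so its count is a description. The level of Ccl2, the chemokine that attracts monocytes, was 5.81, 5.26, 4.60 and 9.29 in replicates 1 to 4 at 8 h, and 5.55, 4.82, 4.21 and 7.71 at 12 h. Replicate 3 was the lowest LA array and replicate 4 the highest at each time, 25.8-fold and 11.3-fold above replicate 3. Ccl7, a chemokine of the same cluster, was at 6.03, 5.75, 4.56 and 7.44 at 8 h and at 5.19, 5.58, 4.31 and 6.82 at 12 h. Cxcl1, which attracts neutrophils, was at 7.48, 6.58, 5.28 and 8.84 at 8 h and at 7.50, 6.0, 4.99 and 7.67 at 12 h. For these 3 chemokines too replicate 3 was the lowest of the LA replicates, so the pair spanned the range of the LA arrays.

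Cxcl5, another neutrophil chemokine, was at the floor in replicate 3 at both times and at 8.96 and 5.93 in replicate 4, a difference of at least 5.12 and at least 2.09. Vcam1, a surface protein to which leukocytes adhere, was at 5.10, 7.79, 6.93 and 8.77 at 8 h and at 6.33, 8.17, 6.38 and 9.23 at 12 h. Csf1, the growth factor of macrophages, was at 6.57, 6.49, 6.43 and 7.63 at 8 h and at 6.87, 6.95, 5.47 and 7.49 at 12 h. Replicate 4 was the highest LA array for each of these 3, but the 3 other bright probe sets of Csf1 did not pass, with differences between -0.04 and 0.14 at 8 h and between 0.24 and 0.69 at 12 h. Relb, a subunit of NF-kB, differed by 1.24 at 8 h and by at least 1.04 at 12 h, but was higher in replicate 1, at 6.38 and 6.09, than in replicate 4, at 5.38 and 4.87. Both arrays of replicate 4 lay above all 8 other arrays for 5 of the 7 genes, Cxcl1 and Relb being the exceptions. That position was held by 10.7% of all genes tested and by 62.9% of the 116 genes higher in replicate 4, from which the 7 were counted, so nothing is read from it.

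The remaining inflammation genes did not pass in either direction at both times. Nfkbia, the inhibitor of NF-kB that its own activity induces, differed by 0.92 and 0.15. Tnfaip3 differed by 0.87 and 0.35, Birc3 by 1.27 and 0.69, Nfkb2 by -0.12 and 0.18, and Cxcl12 by 0.74 and 0.71. Saa3, a serum amyloid gene, was 2.40 higher in replicate 4 at 8 h and differed by -0.65 at 12 h. Il6, Ptgs2, Cxcl10, Cxcl2, Icam1 and Nos2 were too dim to be tested. The summed intensity of 7 macrophage markers was 138 in replicate 3 and 258 in replicate 4 at 8 h, and 141 and 154 at 12 h. Of the 7, Itgam, Ptprc, Tyrobp, Lyz2 and Cd68 were at the floor in all 4 arrays. Csf1r was at 5.49 and 7.25 in replicates 3 and 4 at 8 h and at 5.57 and 5.79 at 12 h. A further bright probe set of Csf1r differed by 0.09 and -1.04. Adgre1 was at 4.44 and 5.09 at 8 h and at 4.48 and 4.77 at 12 h. Of 4 genes tested in a longer macrophage list, 1, Cd14, was higher at both times, by 1.53 and 1.13. Over all genes tested 1.06% were higher. The summed intensity of 9 measured markers of fibroblasts or fat cell precursors was 9289 in replicate 3 and 7015 in replicate 4 at 8 h. At 12 h it was 8208 and 11622. Of 16 genes tested in a longer list of such markers, 0 were higher and 0 lower at both times, with median differences of -0.17 and 0.45. The part of other cells, fibroblasts included, in the chemokine values was not tested.

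The upstream sequences of 3 genes are shown because Fkbp5 and Lcn2 had large differences in the glucocorticoid list and Cxcl1 in the inflammation list. They are the 250 bases before the start of the gene, 5′ to 3′, from RefSeq promoters of build GRCm38.p6. Motifs were searched on both strands as GGGNN directly followed by TTTCC for NF-kB and ACANNNTGT for the glucocorticoid receptor, and matches are in capitals. Positions count back from the start of the gene.
Fkbp5, chr17:28486150-28486399, minus strand: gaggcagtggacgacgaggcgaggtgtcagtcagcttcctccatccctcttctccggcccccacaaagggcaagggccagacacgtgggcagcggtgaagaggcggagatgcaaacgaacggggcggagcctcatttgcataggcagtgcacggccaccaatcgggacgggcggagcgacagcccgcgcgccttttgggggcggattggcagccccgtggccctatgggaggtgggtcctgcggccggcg
Lcn2, chr2:32387740-32387989, minus strand: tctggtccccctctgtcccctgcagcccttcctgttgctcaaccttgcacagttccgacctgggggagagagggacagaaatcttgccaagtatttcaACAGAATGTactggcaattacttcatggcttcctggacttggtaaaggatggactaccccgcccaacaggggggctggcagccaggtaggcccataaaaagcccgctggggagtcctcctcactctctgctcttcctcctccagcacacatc
Cxcl1, chr5:90890995-90891244, plus strand: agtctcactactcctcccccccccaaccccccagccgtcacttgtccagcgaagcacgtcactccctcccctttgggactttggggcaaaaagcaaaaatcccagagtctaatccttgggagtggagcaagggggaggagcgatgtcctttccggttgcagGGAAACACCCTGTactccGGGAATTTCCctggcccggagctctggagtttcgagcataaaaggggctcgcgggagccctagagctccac
The Cxcl1 sequence held an NF-kB match starting at -71 and another on the opposite strand at -89, which overlaps a glucocorticoid receptor match at -85. The Lcn2 sequence held a glucocorticoid receptor match at -152. No match to either set of letters was in the 250 bases of Fkbp5. Among the genes tested that have a promoter in the table, 1.72% held the NF-kB letters and 4.26% the glucocorticoid receptor letters. Of the 289 genes lower in replicate 4, 236 had a promoter in the table, or 81.7%. Of these 4.66% held the glucocorticoid receptor letters and 1.69% the NF-kB letters, near the shares over the genes tested. Among the 11 lower glucocorticoid genes, a match to the receptor letters was found for Lcn2 and Fam107a alone. Of the 116 genes higher in replicate 4, 83 had a promoter in the table, or 71.6%, which is too few for a comparison of that group with the others.

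Beyond these lists, genes were ranked by the smaller of the 8 h and 12 h differences. The 12 highest in replicate 4 were E130307A14Rik, Ccl2, Cxcl1, Ccl7, Tm4sf1, Apcdd1, Cxcl5, Thbs1, Pawr, Vcam1, Tnfaip6 and Tlr3. E130307A14Rik, a gene with no assigned role in the files, was at 5.0 and 8.64 in replicates 3 and 4 at 8 h and at 4.35 and 9.19 at 12 h, and a dimmer probe set of it differed by only 0.51 and 0.48. Thbs1, a matrix protein that activates TGF-beta, was at 4.62, 5.92, 5.52 and 7.56 in replicates 1 to 4 at 8 h and at 5.63, 5.63, 5.28 and 7.80 at 12 h. Apcdd1, an inhibitor of Wnt signalling, differed by 2.37 and 2.25, and its 4 other bright probe sets by 1.24 to 1.82 at 8 h and 0.02 to 1.14 at 12 h, where 3 of the 4 were under 2-fold. Tlr3, a receptor for double-stranded RNA, differed by 1.82 and 2.14, and Tnfaip6, a hyaluronan-binding protein induced by TNF, by 1.84 and at least 2.57. Both replicate 4 arrays exceeded all 8 others for 10 of these 12 genes, and Cxcl1 and Tnfaip6 were the exceptions. Tnfaip6 was at 6.37 and 6.73 in replicate 2. The 12 were ranked by their height in replicate 4 over replicate 3, so nothing is read from that position.

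The 12 lowest in replicate 4 by the same ranking were Map7d2, Mocs1, Peg10, Ear3, Lrp5, Slc7a5, Fosl1, Ap2a1, Acsf2, Aldh1a1, Retnla and Maz. Replicate 4 was at the floor at 1 time or both for 8 of them, so those differences are lower bounds in size. Map7d2 was at 7.67 and 7.81 in replicate 3, at 3.84 and 3.96 in replicate 4, and between 5.30 and 5.66 in LA replicates 1 and 2, so here replicate 3 was high and replicate 4 low. Lrp5, a co-receptor for Wnt ligands, was at 7.88, 6.46, 7.77 and 4.16 at 8 h and at 7.69, 5.60, 7.64 and 4.5 at 12 h. Peg10, an imprinted gene derived from a retrotransposon, differed by -3.35 at 8 h and, at the floor in replicate 4 at 12 h, by -3.52 or more. Several of the 12 were also low in replicate 2. Mocs1, an enzyme of molybdenum cofactor synthesis, was at 4.88 and 4.62 in replicate 2 and at 4.86 and 3.84 in replicate 4, against 8.24 and 8.09 in replicate 3. Maz, a zinc finger transcription factor, and Acsf2, an acyl-CoA synthetase family member, were likewise low in replicates 2 and 4. Ear3 belongs to a family of near-identical ribonuclease genes, and its probe set can also detect its relatives.

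The levels in LA replicates 1 and 2, which the pair did not use, were set beside those in replicates 3 and 4. Of the 289 genes lower in replicate 4, replicates 1 and 2 both lay nearer to replicate 3 for 162 and nearer to replicate 4 for 11. For 104 only replicate 1 lay nearer to replicate 3, and for 12 only replicate 2 did. Of the 116 higher genes, both lay nearer to replicate 3 for 58 and nearer to replicate 4 for 14. For 37 only replicate 1 lay nearer to replicate 3, and for 7 only replicate 2 did. So replicate 2 was often on the side of replicate 4. Of the 11 glucocorticoid genes, both lay nearer to replicate 3 for 9 and nearer to replicate 4 for 0. Of the 7 inflammation genes, both lay nearer to replicate 3 for 4 and nearer to replicate 4 for 1. Both replicate 4 arrays were below all 8 others for 218 of the 289 genes (9.84% of all genes tested) and above them for 73 of the 116 (10.7%). These counts share the arrays of replicates 3 and 4 with the choice of the genes and are a description. How often replicates 1 and 2 lay nearer to replicate 3 over all genes tested was not computed. Nothing is therefore read from the counts of nearness.

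Further probe sets of the same genes were counted by the sign of their differences alone, without the 2-fold rule. The 116 higher genes had 104 other bright probe sets, of which 70 differed in the same direction at both times and 4 in the opposite direction at both. The 289 lower genes had 182, of which 116 differed in the same direction and 5 in the opposite direction at both times. The remaining probe sets had no shared sign at the 2 times. All come from the same RNA and the same arrays as the first probe set. The share of all bright probe sets with a shared sign at both times was not computed, so these counts are a description. Among the genes named here as higher or lower, Apcdd1, Ccn1, Cebpd, Csf1, Dbp, E130307A14Rik, Gbp2, Itga5, Mocs1, Mthfd2, Pfkl, Srebf2, Tgfb1, Vcam1 and Zbtb16 had at least 1 other bright probe set that did not pass at both times.

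The other lists held few genes that passed at both times, and their counts are to be read beside the 1.06% of all genes tested that were higher and the 2.65% that were lower. For lists of about 20 genes a single gene lies near those shares. Of 20 amino acid transporters tested, Slc7a5 alone passed. Its partner chain Slc3a2 was at 9.09 and 8.72 in replicates 3 and 4 at 8 h and at 9.29 and 8.61 at 12 h, differences of -0.37 and -0.68. The glutamine transporter Slc1a5 differed by -0.92 and -1.54. Of 23 genes of the ATF4 and CHOP stress response, Atf5, Mthfd2 and Ddit4 were lower, and of 21 G1 cell cycle genes Ccnd3, Cdkn1a and E2f4 were lower. Fosl1 was the only one of 21 AP-1 and EGR factors to pass. Slc7a5, Ccnd3 and Fosl1 are markers chosen for being low in replicate 4, so nothing is read from their place in these counts.

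In the insulin and mTORC1 list of 21 genes, Irs1, the adaptor of the insulin receptor, and Igf1, a growth factor that acts through the related IGF1 receptor, were higher. Igf1 was at 5.39, 7.23, 6.41 and 9.72 in replicates 1 to 4 at 8 h and at 5.74, 7.06, 6.44 and 8.02 at 12 h, so replicate 4 was the highest at both times. Tsc2 and Ddit4, which restrain mTORC1, were lower in replicate 4, Tsc2 by -1.61 and -1.02. In the circadian list of 16 genes Nr1d2 and Dbp were higher, by 1.01 and 1.60 and by 1.26 and 1.35, and Per1 was lower. A further bright probe set of Dbp differed by 0.06 and -0.62, the opposite direction at 12 h. In the interferon list of 16 genes Gbp2 was higher by 2.40 and 1.63 and Ifit1 by 1.28 and 1.21. In the p53 list of 18 genes Fas and Plk2 were higher and Cdkn1a lower. Among 14 glycolysis genes Pkm and Pfkl were lower, Pkm by -1.35 and -2.12 and Pfkl by -1.01 and -2.93. Among 18 genes of white adipocyte identity Dgat2, which makes triglyceride, was the only gene to pass, at -1.20 and -1.36. Among 18 cholesterol genes the regulator Srebf2 passed, at -1.13 and -1.48, but a further bright probe set of it differed by 0.53 and -0.76.

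Much of what differed between the replicates was not shared by the 2 times. The spread across genes of the change from 8 h to 12 h had an SD of 0.71 in replicate 4, against 0.53, 0.38 and 0.32 in replicates 1, 2 and 3. Over the genes tested, the 8 h and 12 h arrays of replicate 3 had a Spearman correlation of 0.983 and those of replicate 4 of 0.925, below the 0.935 between replicate 4 at 8 h and replicate 3 at 12 h. There were 69 genes, 0.632% of those tested, that differed 2-fold in opposite directions at the 2 times.

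Genes of S and M phase were mostly lower in replicate 4 at 8 h and higher at 12 h. The median difference of 24 tested members was -1.08 at 8 h and 1.48 at 12 h. At 8 h 13 of them were at least 2-fold lower (6.11% of all genes) and 0 higher, and at 12 h 17 were at least 2-fold higher (9.02% of all genes) and 0 lower. Mcm5, a subunit of the replicative helicase, was at 4.42, 7.35, 6.61 and 5.05 in replicates 1 to 4 at 8 h and at 5.62, 7.37, 6.47 and 8.62 at 12 h. Mki67, a protein of cycling cells, was at 3.84, 6.84, 6.26 and 4.86 at 8 h and at 4.34, 7.08, 5.60 and 7.91 at 12 h. Replicate 4 thus lay between replicates 1 and 3 at 8 h and was the highest of all at 12 h for both genes, which were picked from the list after their values were seen.

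Genes of fatty acid synthesis and desaturation went the other way. The median difference of 18 members was 0.51 at 8 h, when 15 were positive, and -0.76 at 12 h, when 1 was, against 50.3% and 48.6% positive over all genes tested. The synthase Fasn was at 11.22, 10.50, 11.66 and 12.02 at 8 h and at 11.79, 10.58, 11.64 and 10.40 at 12 h. Thrsp, a regulator of lipogenesis, was at 11.71 and 12.08 in replicates 3 and 4 at 8 h and at 11.83 and 8.66 at 12 h. Both were picked from the list after their values were seen, and in both replicate 4 was the highest at 8 h and the lowest at 12 h. Cholesterol synthesis genes had medians of 0.81 and -0.46, the mitochondrial respiratory chain 0.29 and -0.42, the hypoxia response 0.37 and -0.95, and white adipocyte identity 0.11 and -0.70. Actin cytoskeleton genes that SRF controls had medians of 0.14 and 1.53, and 12 of 17 were at least 2-fold higher at 12 h, against 9.02% of all genes. Of these Acta2, smooth muscle actin, and Ccn1, a secreted matrix protein, were higher at both times, by 1.21 and 2.81 and by 1.24 and 2.56, while the integrin Itga5 was lower by -2.52 and -2.33. The 12 h values come from the array with the Actb 3′ to 5′ ratio of 5.67, and the part of that in them was not tested.

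**Figure D4:**
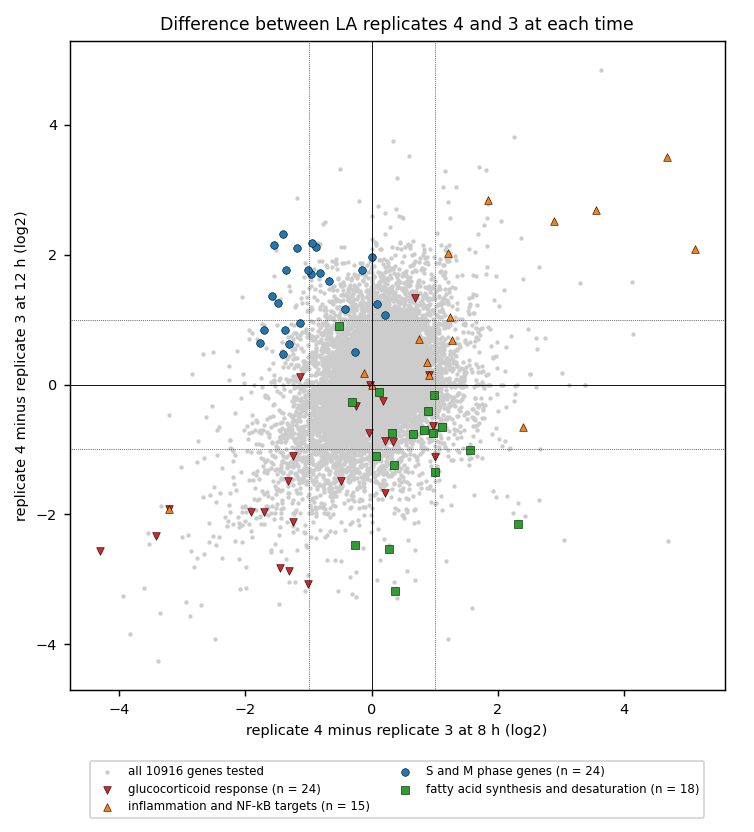
Replicate 4 minus replicate 3 at 12 h against the same at 8 h (log2), 1 point per gene, for all 10916 genes tested (grey) and 4 lists (colours); dotted lines mark 2-fold. Glucocorticoid genes lie mostly at the lower left and inflammation genes at the upper right, S and M phase genes at the upper left (medians -1.08 and 1.48), and fatty acid synthesis genes mostly at the lower right (0.51 and -0.76).

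**Figure D5:**
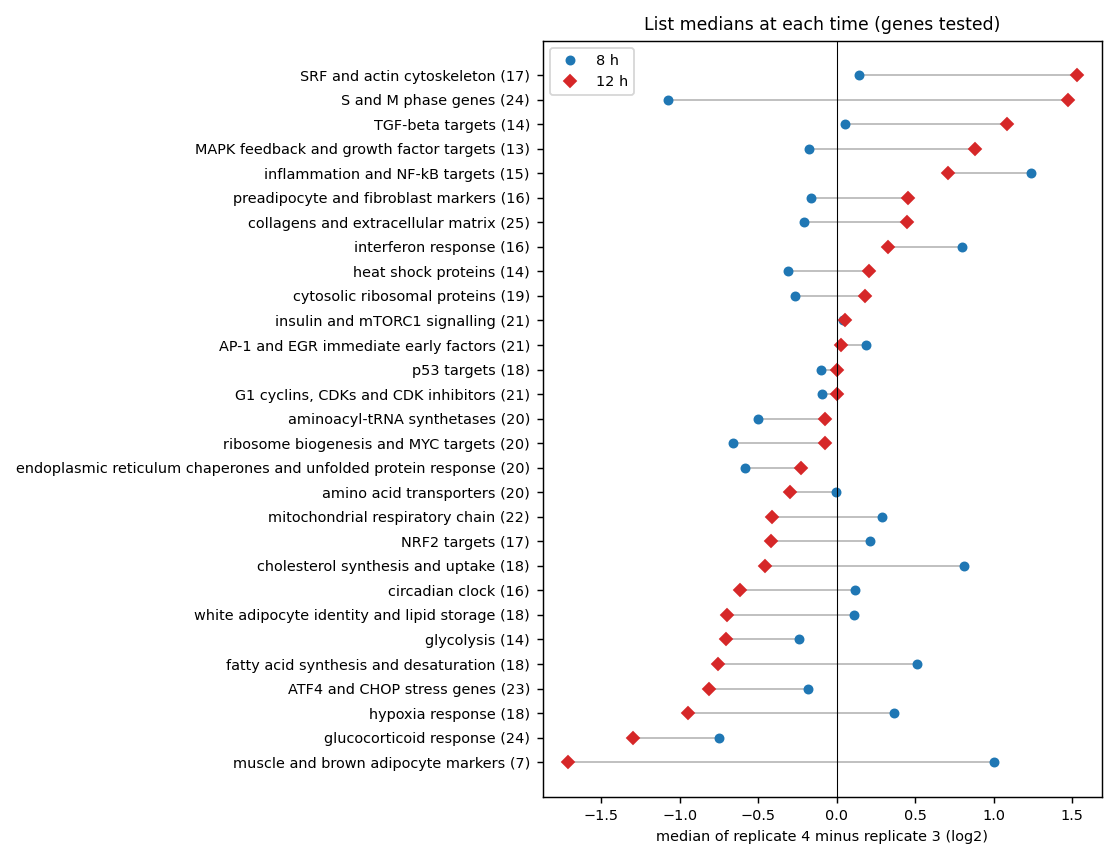
Median of replicate 4 minus replicate 3 (log2) for each list with at least 5 genes tested, at 8 h (blue circles) and 12 h (red diamonds). The glucocorticoid list is negative at both times (-0.75 and -1.30) and the inflammation list positive at both (1.24 and 0.71), while the S and M phase list changes sign.

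The difference between the times was the only quantity tested, since the pair was chosen by the difference averaged over them. The change from 8 h to 12 h in replicate 4 was set against that in replicate 3 with limma, and the spread came from replicates 1 and 2 alone. No gene was called at an adjusted p under 0.05, or 0% of 10916, and the lowest adjusted p by limma with Benjamini-Hochberg adjustment was 0.286. At an unadjusted p under 0.05 by limma there were 1695 genes, 15.5% of those tested. With no difference, 545.8 would be expected if replicates 3 and 4 varied like 1 and 2. That was assumed and not tested. The SD across genes of the change was 0.71 in replicate 4, against 0.53 and 0.38 in replicates 1 and 2. The figure of 545.8 is therefore no firm yardstick. The count depends on the setting: 6 other settings also gave 0, but 5 gave between 344 (no filter on dim genes) and 1122 (median centring). With 1 residual degree of freedom the spread is poorly known, and 95% intervals had a median half-width of 1.29.

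The 5 genes with the smallest p in each direction are given next. Rrm2, a subunit of ribonucleotide reductase, was at 7.95 and 6.59 in replicates 3 and 4 at 8 h and at 7.94 and 9.71 at 12 h, a difference between the changes of 3.12 ± 0.31 (SE). The transcription factor Snai2 (2.92), the phosphatase Mtm1 (3.02) and the cytoskeletal genes Ahnak2 (3.40) and Plec (1.93) had the other 4 smallest p among positive values. Apoc1, an apolipoprotein, was at 8.78 and 11.82 at 8 h and at 9.26 and 6.87 at 12 h, a difference between the changes of -5.43 ± 0.21 (SE). Cox8b, a respiratory chain subunit of muscle and brown fat, was at 4.92 and 9.62 at 8 h, and at 6.25 and the floor at 12 h. Bsg (-3.25), Gstz1 (-3.12) and the lipid droplet enzyme Pnpla3 (-4.46) completed the negative values. Each of these 10 had an adjusted p of 0.286 by limma. Ccnd3 had a difference between the changes of 0.02 with a half-width of 0.60, Slc7a5 of -0.40 with 0.69, Fosl1 of -0.68 with 1.94, and Fkbp5 of 1.09 with 1.31, so each of these 95% intervals included 0.

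The genes most like each marker were found by Pearson correlation over the 8 LA arrays centred on the mean of each time. The arrays share replicate numbers in pairs, so this is a description. The markers were chosen for being low in replicate 4, which favours other genes low there, so nothing is read from the ranking. Foxred2 was nearest to Fkbp5 (r = 0.996) and was also among the 5 nearest to Fosl1 and Ccnd3. It differed by -2.58 and -2.14 between replicates 4 and 3. The other 4 nearest to Fkbp5 were the kinases Limk1 and Limk2, Fam107a and Zhx3. Nearest to Slc7a5 was Itga5 (r = 0.997), then Dcaf4, Jmjd8, Cdk5rap3 and Plod1. Nearest to Fosl1 were Ear3 (r = 0.981), Prpf6, Mgat2, Xdh and Foxred2, and nearest to Ccnd3 were Xdh (r = 0.990), Map6, Rpp25l, Foxred2 and Zhx3.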

How the data were processed

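Total RNA was extracted with Trizol and labelled with biotin from 15 ug for Affymetrix arrays, per the labels' protocols. The deposited table holds probe set intensity on a linear scale, and 22.5% of the entries are 0 or negative, which background subtraction gives; the software, scaling and build are not given in the sources used here. A deposited table of pooled ratios was not used. Of 45101 probe sets, 64 controls were left out and 34945 with exactly 1 gene symbol in the platform annotation were kept (932 had several and 9160 none; 34741 symbols were updated through the Entrez identifier). Intensities of all 10 arrays were quantile normalized, raised to a floor of 14.3 (the size of the table's 2nd percentile) and put on the log2 scale. Each of 18193 genes was represented by its brightest probe set. The dimmest 40% of genes were removed, and 10916 remained, with 11.1% of their values at the floor.

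The members, the 31 gene lists and the rules were chosen with earlier results of these data known. Named genes were the 4 markers, the 12 largest consistent differences in each direction, the list members that passed with up to 4 others, the 5 genes most like each marker and the 5 smallest p in each direction of the test; other list members were named after their values were seen. The change between times was tested with limma 3.58.1 (R 4.3.3) by two-sided moderated tests with an intensity-dependent prior variance and Benjamini-Hochberg adjustment, tried first on simulated data. Its p-values measure only the spread between these arrays, replicates 3 and 4 are assumed to vary like 1 and 2, and the number of arrays limits the precision. The scaling, floor, filter, probe set rule, log scale, fold and times were varied, and replicates 1 and 2 were left out in turn. Figures were drawn with matplotlib 3.10.9.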

Additional observations from a re-analysis of the deposited data

Results flagged for a closer look

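In 132 groups of 4 LA arrays, 12 held an array that lay apart from the other 3 by Dixon's test at the 95% level. Chance flags about 1 group in 20, but that rate is no yardstick here. The genes had been picked for their difference between replicates 4 and 3, which favoured flags on arrays of those replicates. In all 12 groups the array that lay apart was of replicate 4. At 8 h they were Fkbp5 at a log2 level of 6.45, Ccnd3 at 7.76, Fam107a at the floor of 3.84, Tnc at 4.88 and Csf1 at 7.63. At 12 h they were Fkbp5 at 7.44, Ccnd3 at 7.65, Thbs1 at 7.80, Mt2 at 8.08 and Tnc at 6.17. Tnc, a matrix protein, was at the floor in the other 6 LA arrays, so any value above the floor would have been flagged. The other bright probe sets of Csf1 did not pass the 2-fold rule. The 3′ to 5′ ratios of the 12 h array were flagged too, at 5.67 for Actb and 1.42 for Gapdh.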

How the results depend on the processing

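No paired analysis was possible because the comparison is between the replicate numbers themselves, which leaves no number to use as a block; the arrays were set against each other within each time. The counts of genes higher and lower in replicate 4 at both times (116 and 289) were within 1.5 times under median centring, quantile normalization of the LA arrays alone, a floor of 30 and no filter. They were 244 and 186 in the values as deposited, 41 and 136 with a floor of 64, 19 and 96 with log2(value + 50), 181 and 612 over every probe set, 560 and 780 at 1.5-fold and 24 and 84 at 3-fold. They were 636 and 667 at 8 h alone and 985 and 947 at 12 h alone. The higher count was 63 with the lowest 60% left out and 51 with the mean of a gene's probe sets. Without replicate 1 or 2 it was 119 to 126, and the lower count 276 to 307. The glucocorticoid count of 11 was between 8 and 14, except 5 at 3-fold, and 9 to 11 without replicate 1 or 2. The inflammation count of 7 was between 5 and 9, except 4 with a floor of 64, and 6 to 7 without replicate 1 or 2. These list counts were added after seeing the data. The count of genes whose difference changed between times was 0, but 1122 with median centring, 462 with a floor of 64, 344 with no filter, 612 with the lowest 60% left out and 855 with log2(value + 50); without replicate 1 or 2 it has no residual degree of freedom. The cause of these shifts was not tested. Of 576 values of the 64 named genes that passed, 395 moved by less than the SD over the 2 times, 181 moved by more and 0 reversed. Values near the floor limit what can be ranked.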

Other observations

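Matrix genes described only in part above also differed. Of 25 collagen and extracellular matrix genes tested, Thbs1 and Tnc were higher in replicate 4 at both times and 0 were lower. Over all genes tested 1.06% were higher and 2.65% lower. Tnc was at the floor in every array outside replicate 4, so its differences are at least 1.04 and at least 2.33. Only the replicate 4 arrays kept Tnc among the genes tested, so nothing is read from its place in the count. The collagenase Mmp2 was at 10.22, 11.96, 11.45 and 9.71 in LA replicates 1 to 4 at 8 h and at 10.81, 11.89, 10.97 and 10.93 at 12 h, so the lower level of replicate 4 was seen at 8 h alone. The crosslinking enzyme Lox was at 10.48 and 9.67 in replicates 3 and 4 at 8 h and at 10.01 and 11.54 at 12 h. Tgfb1, the growth factor that drives many matrix genes, was lower in replicate 4 by -1.66 and -1.65, but a further bright probe set of it differed by 0.39 and -1.07. Pck1, an enzyme of glyceroneogenesis, was at the floor in 7 LA arrays and at 7.21 in the 8 h array of replicate 4. Mmp2, Lox and Pck1 were chosen after their values were seen.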
